A study of Rattus norvegicus with 6 samples.

Results

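Oxidative phosphorylation is the pathway of the mitochondrial inner membrane in which electrons pass through complexes I to IV and the resulting proton gradient drives ATP synthase, complex V. The genes described here are the rows that the deposited annotation places in the KEGG oxidative phosphorylation entry, without the vacuolar ATPase subunits whose symbols begin with Atp6v. They number 139 of the 17139 genes in the count table, 126 encoded in the nucleus and 13 in the mitochondrial genome. Of the 126 nuclear members, 77 are counted as subunits of complexes I to V, each in the complex under which the annotation files it. The other 49 include pseudogenes and further copies, rows without a symbol, pyrophosphatases, and genes of the vacuolar ATPase with other symbols, such as Tcirg1. Cytochrome c, the assembly factors Cox10, Cox11 and Cox15, and genes with unrelated symbols that carry the annotation are also among them.

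The libraries were made from polyadenylated RNA of cultured primary cells from the rat nucleus pulposus, the soft centre of the intervertebral disc. There were 3 libraries of cells without treatment (control) and 3 of cells exposed to 10 µM bradykinin, a peptide of the kallikrein-kinin system that acts through the B1 and B2 receptors. Strain, age, sex, oxygen tension and treatment time are not given in the sources used here, and nothing states that the replicates were separate animals or cultures. A p-value here thus reflects variation among these libraries that may be only technical. In such bulk RNA, fewer cells of a type and less RNA per cell cannot be told apart.

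Total counts ranged from 12883067 to 15462764 per library. Of the 14 fixed nucleus pulposus markers 10 were in the table, and 8 of those had at least 10 counts in every library. Their summed level was 614 to 907 CPM (counts over TMM-scaled library size) in the bradykinin libraries and 619 to 653 CPM in the controls. Acan (301 to 511 and 257 to 272 CPM) and Hif1a (176 to 232 and 193 to 205 CPM) were its largest parts. Single markers differed in direction: Acan was higher in every bradykinin library, and Car3 lower (2.60 to 3.58 against 7.66 to 8.49 CPM). Krt18, Krt19, Tbxt and Shh were not in the table. Col2a1, the cartilage collagen gene on that list, had 0 to 2 counts in every library. Endothelial markers (3 of 4 in the table) summed to 0.195 to 0.872 CPM with bradykinin and 0.338 to 0.584 CPM in controls. Leukocyte markers (2 of 4) summed to 0.218 to 0.325 and 0.351 to 0.473 CPM, and skeletal muscle markers (2 of 4) to 1.38 to 2.28 and 2.53 to 3.31 CPM. The only erythroid marker in the table, Alas2 (1 of 3), was at 0 in every library but control replicate 3, at 0.135 CPM. Bradykinin replicate 3 differed most from the rest: its Spearman correlation with them over tested genes was 0.960 to 0.963, against 0.992 to 0.996 among the other 5. Log2 fold changes are therefore given with and without that library.

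The pathway is built from both genomes, so its subunits have to be made in 2 compartments and assembled together. The mitochondrial genome supplies 7 subunits of complex I, 1 of complex III, 3 of complex IV and 2 of complex V, and all of complex II is nuclear. Nucleus pulposus tissue has no blood vessels and is poor in oxygen, and its cells are known for relying largely on glycolysis.

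With bradykinin, no oxidative phosphorylation gene passed the test. Nuclear subunit genes stood together at 1.51 times the control level in bradykinin replicate 3 (median over 75 genes), and close to the control level in bradykinin replicates 1 and 2. Most mitochondrially encoded genes stood lower than control in that same library, at 0.739 times the control level (median over 13 genes). Without it, the median log2 fold change was -0.043 for nuclear members and 0.033 for mitochondrial ones.

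In the edgeR quasi-likelihood test over 12413 genes in 6 libraries, 0 genes had a Benjamini-Hochberg adjusted p of 0.05 or less (0.0% of genes tested), so 0 of 106 tested nuclear members and 0 of 13 mitochondrial members passed. At an unadjusted p under 0.05 there were 849 genes (6.84% of those tested), among them 3 nuclear members and 0 mitochondrial ones. DESeq2 called 44 genes at the same adjusted threshold (0.354%) and limma-voom 0, and no member was among them. Without bradykinin replicate 3, edgeR called 388 of 12536 genes (3.1%), again with 0 nuclear and 0 mitochondrial members. In those 5 libraries 1900 genes (15.2%) and 8 nuclear members had an unadjusted p under 0.05, 3 of the 8 with a higher level with bradykinin. The remaining 20 nuclear members had too few reads to be tested, and none of these had more than 60 counts over all libraries.

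The groups failed to overlap for 6 nuclear members (5.66% of 106) and 1 mitochondrial member (7.69% of 13), against 17.5% of all tested genes. With bradykinin replicates 1 and 2 alone against the controls this held for 25 nuclear members (23.6%) and again 1 mitochondrial member, against 31.7% of all tested genes. The members' shares were thus below those of all genes in both comparisons.

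As a share of all counts, nuclear members took 0.458%, 0.447% and 0.456% in control replicates 1 to 3, and 0.442%, 0.432% and 0.666% in bradykinin replicates 1 to 3. The last value is the only one outside a narrow band. Mitochondrial members took 1.69%, 1.99% and 1.92% of control counts and 2.06%, 1.70% and 1.53% of bradykinin counts. Those ranges overlap, with bradykinin replicate 1 highest and bradykinin replicate 3 lowest. The log2 ratio of mitochondrial to nuclear member counts was 1.89, 2.15 and 2.08 in controls and 2.22, 1.97 and 1.20 with bradykinin.

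Per library, deviations are given as log2 CPM minus the mean of the 3 controls. The median over 75 nuclear subunits was 0.01, -0.02 and 0.01 in control replicates 1 to 3, and -0.03, -0.06 and 0.60 in bradykinin replicates 1 to 3. Bradykinin replicate 3 was the highest of the 6 libraries for 74 of these 75 subunits (98.7%) and for 93 of 106 nuclear members (87.7%), compared with 37.9% of all tested genes. That share of all genes varied with genomic span (below), from 63.8% in the shortest of 4 equal classes to 14.0% in the longest. Across the other 5 libraries a subunit's log2 level had a median SD of 0.09 and a median range of 0.22. In those 5 libraries every library was the highest for some subunits and the lowest for others, from 6 subunits highest in bradykinin replicate 2 to 22 in control replicate 3.

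**Figure D1:**
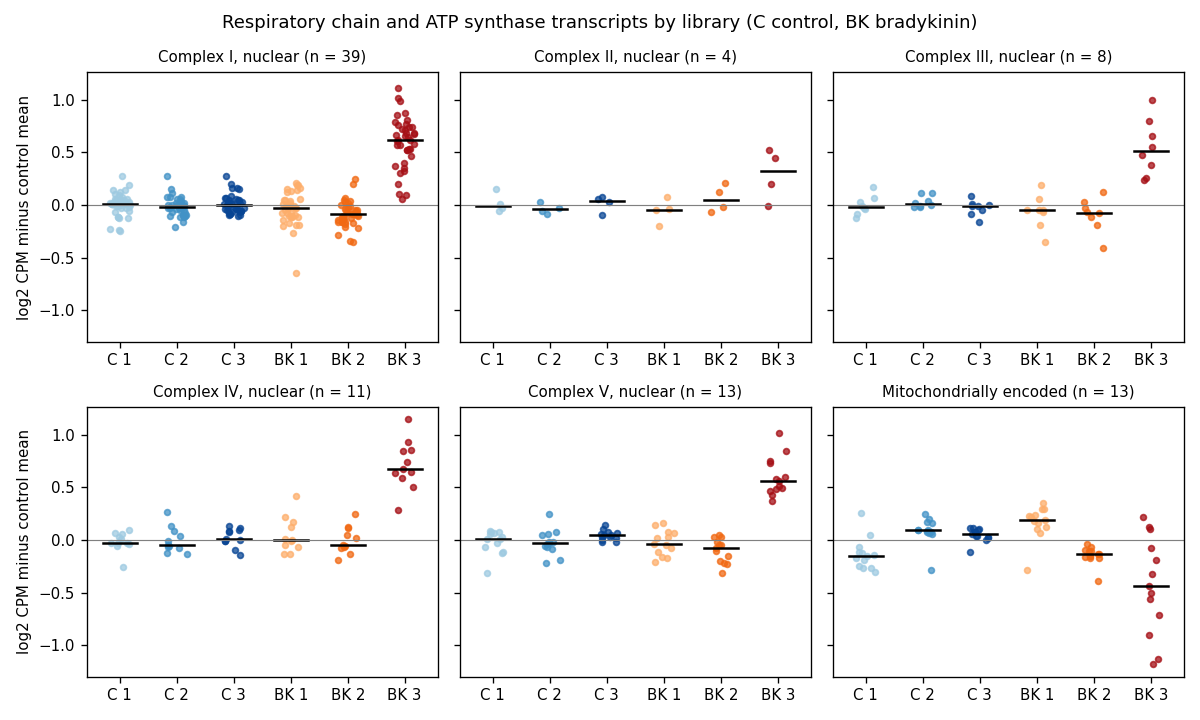
Deviation of each gene from its control mean (y axis, log2 CPM) in each library (x axis), with nuclear subunits split by complex and the mitochondrially encoded genes in the last panel; each point is a gene and bars are medians. In bradykinin replicate 3 (BK 3) the medians of the nuclear panels stand at 0.32 to 0.67 and that of the mitochondrial panel at -0.44, while in the other 5 libraries nuclear medians lie between -0.09 and 0.05.

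Complex I, the NADH dehydrogenase through which electrons from NADH enter the chain, has the most members. The annotation files 39 nuclear rows as its subunits, all of them tested. These include Ndufa4, now known as a subunit of complex IV, its relative Ndufa4l2, and the rows C3h15orf48 and Ndufa10l1. Over all 39, the median log2 fold change was 0.19 in 6 libraries, with 35 positive, and -0.05 in 5 libraries, with 11 positive. All 39 were highest in bradykinin replicate 3, with deviations there from 0.06 to 1.11.

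The complex I subunits with the smallest p were the accessory subunits Ndufb11, Ndufb6 and Ndufa5. Ndufb11 stood at 22.5, 23.5 and 27.2 CPM in controls and 27.7, 25.6 and 41.6 CPM with bradykinin, overlapping by a single control library. The log2 fold change was 0.37 ± 0.20 (SE; edgeR adjusted p = 0.737), and 0.13 ± 0.10 (adjusted p = 0.629) in 5 libraries. Ndufb6 was at 19.1, 20.4 and 18.5 CPM in controls and 19.8, 22.2 and 31.1 CPM with bradykinin. For Ndufa5 the controls were 28.7, 24.9 and 26.9 CPM and the bradykinin libraries 30.0, 27.3 and 42.5 CPM. In each of these, 1 of bradykinin replicates 1 and 2 lay within the control range and the other just above it. The log2 fold changes were 0.34 ± 0.18 for Ndufb6 and 0.31 ± 0.18 for Ndufa5, and 0.12 ± 0.10 and 0.09 ± 0.09 in 5 libraries.

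Complex II, succinate dehydrogenase, is shared with the citric acid cycle and departed least from control. Its 4 subunits had a median deviation of 0.32 in bradykinin replicate 3, below the 0.51 to 0.67 of the other complexes, a difference that was not tested. Sdhb, the iron-sulfur subunit, was at 79.0, 68.6 and 66.6 CPM in controls and 69.2, 77.4 and 70.8 CPM with bradykinin, and was the only tested nuclear subunit not highest in bradykinin replicate 3. Sdhb had a log2 fold change of 0.02 ± 0.11, or 0.04 ± 0.08 in 5 libraries. That of Sdha, the flavoprotein subunit, was 0.00 ± 0.12, or -0.11 ± 0.06 in 5 libraries. Sdha read 114.7, 114.1 and 120.9 CPM in controls and 101.3, 115.0 and 133.6 CPM with bradykinin. The groups overlapped for both genes.

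The membrane anchors were Sdhc and Sdhd. Sdhc was at 65.2, 69.2 and 68.9 CPM in controls and 65.4, 64.9 and 92.3 CPM with bradykinin. Sdhd was at 44.4, 41.7 and 46.6 CPM in controls and 46.6, 50.9 and 63.6 CPM with bradykinin. Sdhd is among the 6 nuclear members whose groups did not overlap, by a margin smaller than the last digit printed. Between groups its log2 fold change was 0.28 ± 0.14 (edgeR adjusted p = 0.737), and 0.14 ± 0.07 (adjusted p = 0.398) without bradykinin replicate 3.

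Complex III, the cytochrome bc1 complex, hands electrons from ubiquinol to cytochrome c. All 8 tested nuclear subunits were highest in bradykinin replicate 3, with a median deviation of 0.51. Uqcrh, the hinge protein that binds cytochrome c1, was at 11.7, 12.4 and 13.1 CPM in controls and 14.1, 11.7 and 24.9 CPM with bradykinin. Uqcrfs1, the Rieske iron-sulfur protein, was at 61.5, 57.9 and 56.7 CPM in controls and 56.9, 63.9 and 92.5 CPM with bradykinin. For both, 1 of bradykinin replicates 1 and 2 lay inside the control range and the other above it. Their log2 fold changes were 0.45 ± 0.27 and 0.28 ± 0.18, and 0.06 ± 0.13 and 0.04 ± 0.07 in 5 libraries.

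The large core proteins Uqcrc1 and Uqcrc2 face the mitochondrial matrix. Uqcrc1 read 97.9, 94.6 and 95.6 CPM in controls and 93.2, 92.0 and 133.6 CPM with bradykinin, and Uqcrc2 78.8, 86.5 and 75.3 CPM against 83.55, 81.7 and 94.2 CPM. Bradykinin replicate 3 was the highest library for both, while replicates 1 and 2 were below every control for Uqcrc1 and among the controls for Uqcrc2. Uqcrb, a small quinone-binding subunit chosen after its values were seen, had the smallest p of any subunit in 5 libraries. It was at 16.3, 19.3 and 17.8 CPM in controls and 14.0, 13.4 and 23.2 CPM with bradykinin, so replicates 1 and 2 lay below every control and replicate 3 above. In 5 libraries Uqcrb had a log2 fold change of -0.38 ± 0.11 (edgeR adjusted p = 0.102), and in 6 of -0.08 ± 0.22 (adjusted p = 0.909).

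Complex IV, cytochrome c oxidase, reduces oxygen to water, and several of its nuclear subunits exist as tissue or oxygen dependent isoforms. The 11 tested nuclear subunits that the annotation files there had a median deviation of 0.67 in bradykinin replicate 3. Cox4i1, the ubiquitous subunit 4, was at 79.7, 77.6 and 77.9 CPM in controls and 71.4, 79.6 and 142.0 CPM with bradykinin, a log2 fold change of 0.32 ± 0.24, or -0.05 ± 0.06 in 5 libraries. Cox4i2, the isoform known from lung and from low oxygen, was at 5.52, 8.003 and 6.62 CPM in controls and 8.91, 7.92 and 14.8 CPM with bradykinin. Its bradykinin values overlap the controls only through replicate 2. Among the rows counted as subunits, Cox4i2 was the only 1 with an unadjusted p under 0.05 in 6 libraries. Its log2 fold change of 0.66 ± 0.27 had an edgeR adjusted p of 0.727. In 5 libraries the change was 0.33 ± 0.17 (adjusted p = 0.410).

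The log2 ratio of Cox4i2 to Cox4i1 counts was -3.84, -3.27 and -3.55 in controls and -3.00, -3.32 and -3.26 with bradykinin. These ranges overlap, and bradykinin replicate 3 lies inside the range of the other bradykinin libraries. Cox7a2l, which joins complexes III and IV into supercomplexes, was at 34.4, 33.9 and 37.3 CPM in controls and 39.5, 38.3 and 54.9 CPM with bradykinin, without overlap. For Cox7a2l the log2 fold change was 0.33 ± 0.16 (edgeR adjusted p = 0.737), or 0.14 ± 0.07 (adjusted p = 0.398) in 5 libraries. Cox7a2, the widely expressed form of subunit 7a, was at 13.5, 13.2 and 14.8 CPM in controls and 13.8, 14.97 and 23.1 CPM with bradykinin.

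Cox6a1, the form of subunit 6a found outside heart and skeletal muscle, was at 160.0, 141.9 and 148.5 CPM in controls and 142.7, 144.7 and 233.1 CPM with bradykinin. The muscle form Cox6a2 had 0, 2 and 3 counts in controls and 0, 3 and 10 counts with bradykinin, too few for a test. Cox6b1, a subunit facing the intermembrane space, was at 12.3, 12.99 and 12.7 CPM in controls and 14.7, 11.04 and 19.1 CPM with bradykinin, a log2 fold change of 0.24 ± 0.20, or 0.02 ± 0.14 in 5 libraries. No row carried the symbol Cox6b2 or Cox7a1, so neither was analysed here.

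Ndufa4, which the annotation files under complex I but which is now known as a subunit of complex IV, has a hypoxia-inducible relative, Ndufa4l2. Ndufa4 was at 11.1, 10.8 and 11.2 CPM in controls and 12.1, 10.2 and 13.7 CPM with bradykinin. Ndufa4l2 was at 78.4, 81.6 and 84.0 CPM in controls and 75.1, 96.5 and 120.9 CPM with bradykinin, so the treated libraries spread to both sides of the controls. Its log2 fold change was 0.26 ± 0.17 (edgeR adjusted p = 0.737), and 0.08 ± 0.09 in 5 libraries. The log2 ratio of Ndufa4l2 to Ndufa4 counts was 2.82, 2.91 and 2.91 in controls and 2.63, 3.23 and 3.14 with bradykinin.

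**Figure D2:**
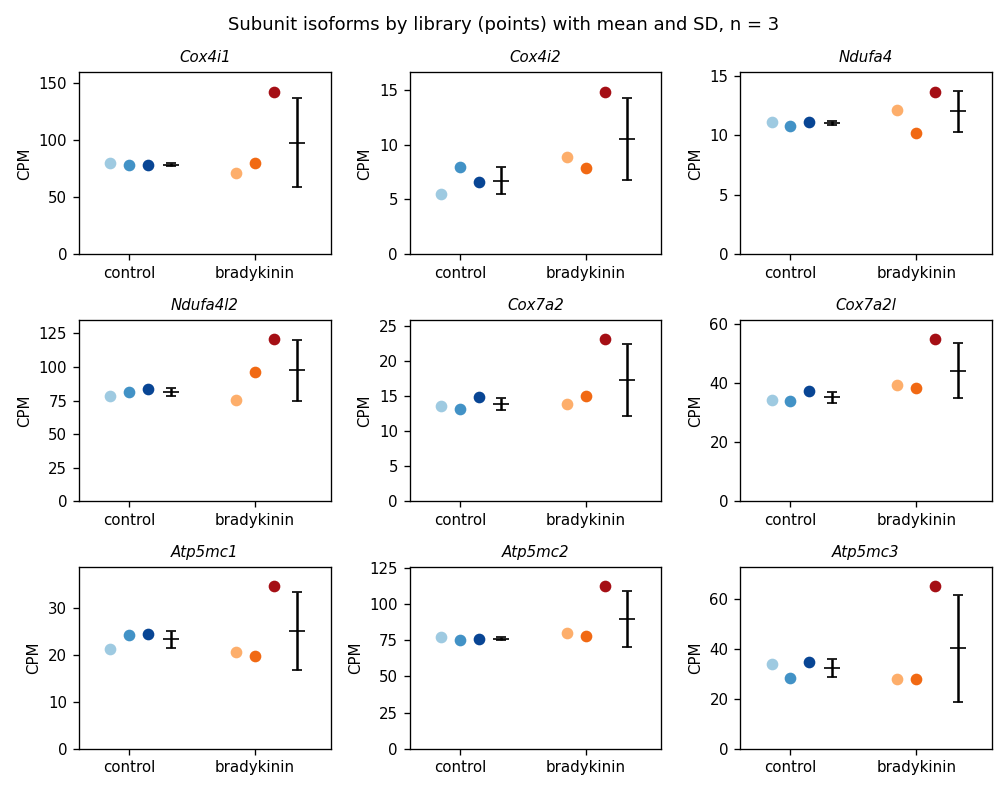
Level in CPM (y axis, from 0) of isoform and related subunit genes in control and bradykinin libraries; points are libraries in replicate order from light to dark, and bars are mean and SD (n = 3). In all 9 genes the highest point is bradykinin replicate 3, for example 142.0 CPM of Cox4i1 against 71.4 to 79.7 CPM in the other 5 libraries.

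Complex V, ATP synthase, has a catalytic head and a membrane rotor. The 13 tested nuclear subunits were all highest in bradykinin replicate 3, with deviations of 0.37 to 1.02. Atp5f1b, the catalytic beta subunit, was at 635.4, 617.0 and 640.9 CPM in controls and 640.9, 620.9 and 849.6 CPM with bradykinin. Bradykinin replicates 1 and 2 lay within the control range. Its log2 fold change was 0.16 ± 0.14 in 6 libraries and 0.00 ± 0.04 in 5. Atp5f1d, the delta subunit of the central stalk, was at 92.9, 84.7 and 87.1 CPM in controls and 96.9, 90.9 and 148.1 CPM with bradykinin, a log2 fold change of 0.34 ± 0.19, or 0.09 ± 0.06 in 5 libraries. Atp5pd, of the peripheral stalk, was at 73.3, 73.9 and 77.5 CPM in controls and 78.8, 71.2 and 124.3 CPM with bradykinin.

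The rotor ring is built from subunit c, for which Atp5mc1, Atp5mc2 and Atp5mc3 encode the same mature protein with different import sequences. Atp5mc3 was at 33.9, 28.1 and 34.5 CPM in controls and 27.7, 27.8 and 64.9 CPM with bradykinin, so replicates 1 and 2 lay below every control and replicate 3 at 2.02 times the control mean. Atp5mc1 had the same order, at 21.3, 24.2 and 24.5 CPM in controls and 20.7, 19.8 and 34.8 CPM with bradykinin. The log2 fold changes of Atp5mc3 and Atp5mc1 in 5 libraries were -0.21 ± 0.10 (edgeR adjusted p = 0.318) and -0.20 ± 0.10 (adjusted p = 0.357), against 0.32 ± 0.33 and 0.11 ± 0.22 in 6. Atp5mc2 differed, at 77.6, 75.1 and 76.1 CPM in controls and 79.9, 77.8 and 112.6 CPM with bradykinin, with no overlap and a log2 fold change of 0.24 ± 0.15. Without replicate 3 its log2 fold change was 0.05 ± 0.06.

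Nuclear respiratory genes are known targets of NRF1 and of the ETS family factor GABP (also called NRF2), which bind near their start sites. Promoter windows of 250 bases before to 50 bases after the start were found for 67 of the 77 nuclear subunits in RefSeq (GRCr8) and searched on both strands for GCATGCGC, a core of the NRF1 motif, and CCGGAAG, an ETS core; the letters of these cores do not overlap each other. The NRF1 core was present in 8 of 67 (11.9%), against 2.66% of all 27457 promoters in the table and 5.36% of promoters of tested genes. By complex it was present in 2 of 35 (5.71%) for I, 1 of 4 for II and 1 of 6 for III. For complex IV it was in 0 of 9, and for V in 4 of 13 (30.8%). The ETS core was present in 19 of 67 (28.4%), against 9.22% of all promoters and 18.6% of promoters of tested genes. Both were present in 4 of 67 (5.97%), against 0.524% and 1.18%. These are matches of letters and not sites shown to be bound.

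Shown here, with the cores in capitals, are Cox4i1, whose pair of ETS cores lies just after the start, Ndufa6, a complex I subunit with both cores, and Sdhb, which also has both cores and was the only subunit not highest in bradykinin replicate 3. The windows are chr19:65630133-65630432 on the plus strand, chr7:115750268-115750567 on the minus strand and chr5:158547684-158547983 on the plus strand, each written 5′ to 3′ along the gene.
Cox4i1: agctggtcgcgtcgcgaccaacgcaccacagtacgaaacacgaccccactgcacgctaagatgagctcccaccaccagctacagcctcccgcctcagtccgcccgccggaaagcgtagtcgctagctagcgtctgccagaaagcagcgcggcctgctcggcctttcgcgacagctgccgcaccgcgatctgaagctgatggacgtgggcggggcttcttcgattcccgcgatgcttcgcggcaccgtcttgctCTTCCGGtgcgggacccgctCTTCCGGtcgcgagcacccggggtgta
Ndufa6: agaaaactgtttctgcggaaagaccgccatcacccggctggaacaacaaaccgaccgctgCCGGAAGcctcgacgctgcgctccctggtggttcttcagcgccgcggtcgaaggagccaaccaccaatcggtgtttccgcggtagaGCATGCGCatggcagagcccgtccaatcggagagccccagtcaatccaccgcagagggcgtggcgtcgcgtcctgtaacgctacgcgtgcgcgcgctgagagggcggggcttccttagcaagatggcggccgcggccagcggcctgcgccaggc
Sdhb: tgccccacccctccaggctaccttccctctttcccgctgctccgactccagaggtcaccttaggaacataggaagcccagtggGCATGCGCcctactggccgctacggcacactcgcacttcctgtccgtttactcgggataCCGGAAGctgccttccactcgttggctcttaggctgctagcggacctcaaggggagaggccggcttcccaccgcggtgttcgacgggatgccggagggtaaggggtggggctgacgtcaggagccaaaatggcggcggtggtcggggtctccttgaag
Deviations in bradykinin replicate 3 were 0.86 for Cox4i1, 0.74 for Ndufa6 and -0.01 for Sdhb. Over tested subunits with a promoter window, the median deviation there was 0.64 for 18 with the ETS core and 0.58 for 47 without, and 0.54 for 7 with the NRF1 core and 0.61 for 58 without. These medians all lie within the middle range of the 75 subunits, whose quartiles in that library were 0.46 and 0.74.

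The 13 mitochondrially encoded genes are transcribed as long polycistronic RNAs and cut apart afterwards, and in these libraries their levels tended to move together. Their median deviation was -0.16, 0.09 and 0.06 in control replicates 1 to 3, and 0.19, -0.13 and -0.44 in bradykinin replicates 1 to 3. Bradykinin replicate 1 was the highest library for 11 of the 13. Bradykinin replicate 3 was the lowest for 9. Among the other 5 libraries, control replicate 1 was the lowest for 11 and bradykinin replicate 1 the highest for 12, so a control and a treated library mark the ends. Over those 5 libraries the median SD of a mitochondrial gene was 0.16 on the log2 scale, against 0.09 for nuclear subunits.

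In bradykinin replicate 3 the 7 mitochondrial genes of complex I had a median deviation of -0.56, with a range of -1.18 to 0.12. The single complex III gene stood at -0.71, and the 3 complex IV genes had a median of -0.19. mt-Nd5, a proton-pumping subunit, was at 1045, 1234 and 1228 CPM in controls and 1265, 1113 and 532.7 CPM with bradykinin. In the treated group replicate 1 lay above the controls, replicate 2 among them and replicate 3 at 0.456 times the control mean. The log2 fold change of mt-Nd5 was -0.27 ± 0.29 (edgeR adjusted p = 0.757), and 0.03 ± 0.07 in 5 libraries. mt-Nd4l was at 36.4, 43.8 and 44.9 CPM in controls and 49.0, 37.4 and 18.2 CPM with bradykinin, the largest deviation of the 13 at -1.18.

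mt-Nd2 was at 466.1, 559.6 and 553.9 CPM in controls and 614.4, 487.9 and 280.6 CPM with bradykinin. For mt-Nd1 the controls were 1002, 1356 and 1288 CPM and the bradykinin libraries 1474, 1073 and 814.6 CPM, and for mt-Nd4 1125, 1516 and 1453 CPM against 1568, 1213 and 999.5 CPM. In each of these genes bradykinin replicate 1 was above and replicate 3 below every control. mt-Nd3 and mt-Nd6 did not share this: mt-Nd3 was at 89.6, 90.7 and 79.8 CPM in controls and 90.7, 79.0 and 94.1 CPM with bradykinin, and mt-Nd6 at 75.7, 106.6 and 90.0 CPM and 114.6, 79.5 and 85.4 CPM. mt-Nd6 lies on the opposite strand from the other 12, and the labels do not say that strand was kept.

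mt-Cytb, the mitochondrial subunit of complex III, was at 2424, 2863 and 2795 CPM in controls and 3043, 2448 and 1638 CPM with bradykinin, a log2 fold change of -0.18 ± 0.21, or 0.03 ± 0.08 in 5 libraries. The catalytic core of complex IV comes from mt-Co1, mt-Co2 and mt-Co3. mt-Co1 was at 7061, 7696 and 7474 CPM in controls and 7957, 7210 and 5928 CPM with bradykinin, a log2 fold change of -0.08 ± 0.13, or 0.03 ± 0.05 in 5 libraries. mt-Co2 was at 1091, 1266 and 1215 CPM in controls and 1330, 1101 and 1277 CPM with bradykinin, and mt-Co3 at 1748, 1997 and 1934 CPM and 2159, 1773 and 1660 CPM. mt-Co2 in bradykinin replicate 3 was thus slightly above its controls while mt-Co1 was below. The log2 ratio of mt-Nd5 to mt-Co2 counts was -0.06, -0.04 and 0.02 in controls and -0.07, 0.02 and -1.26 with bradykinin. For this pair of genes the ratio departed from the other libraries only in bradykinin replicate 3.

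mt-Atp6, the proton channel subunit of ATP synthase, was at 820.4, 1161 and 1097 CPM in controls and 1246, 909.1 and 1183 CPM with bradykinin, a log2 fold change of 0.12 ± 0.17, or 0.07 ± 0.13 in 5 libraries. mt-Atp8, whose reading frame overlaps that of mt-Atp6, had 173, 109 and 142 counts in controls and 97, 98 and 101 counts with bradykinin. It was the only mitochondrial gene whose groups did not overlap, at 11.2, 7.65 and 9.60 CPM against 7.65, 7.12 and 6.57 CPM, where the values that print alike differ in the next digit. Its log2 fold change was -0.42 ± 0.18 (edgeR adjusted p = 0.729), and -0.37 ± 0.17 (adjusted p = 0.335) in 5 libraries. Reads in overlapping genes, such as mt-Atp8 with mt-Atp6 and mt-Nd4l with mt-Nd4, were shared out by estimate, so values of the small partner are uncertain, as are those of genes with nuclear copies.

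**Figure D3:**
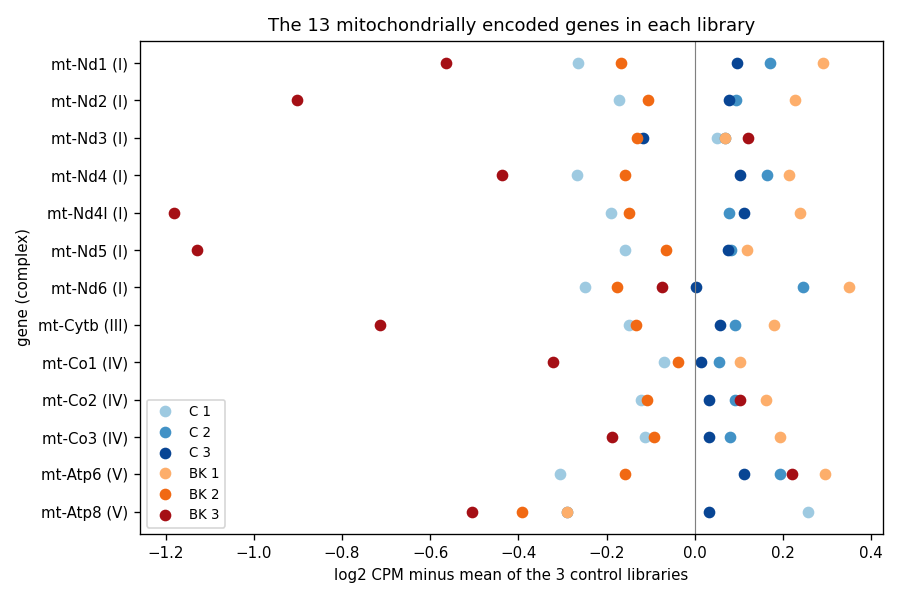
Deviation from the control mean (x axis, log2 CPM) of each mitochondrially encoded gene (y axis, with its complex) in each library; points are libraries (C control, BK bradykinin). BK 3 reaches -1.18 for mt-Nd4l and -1.13 for mt-Nd5 but 0.10 for mt-Co2 and 0.22 for mt-Atp6, while BK 1 is the highest point for 11 of the 13 genes.

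The 49 nuclear members not counted as subunits include rows without a symbol that are annotated to complexes I, III, IV or V. In all, 31 of the 49 were tested and 0 passed, with log2 fold changes from -0.65 to 1.27, or -0.42 to 1.15 in 5 libraries. Their median deviation in bradykinin replicate 3 was 0.41, and 19 of 31 were highest there. Cycs, which encodes cytochrome c, the carrier between complexes III and IV, was at 64.2, 58.8 and 61.9 CPM in controls and 69.2, 58.5 and 82.2 CPM with bradykinin. The assembly factors Cox10, Cox11 and Cox15, which prepare heme A and copper for complex IV, had a median deviation of -0.23 in bradykinin replicate 3 and were not highest in that library. The wider list of assembly factors given below went the other way. Its median deviation there was 0.32, and 26 of its 33 tested genes (78.8%) were highest in that library. Cox11 was at 7.47, 9.41 and 10.4 CPM in controls and 8.36, 10.1 and 4.56 CPM with bradykinin.

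The smallest p of any member in 6 libraries belonged to ENSRNOG00000016952, a row without a symbol annotated to complex III. It had 11, 10 and 10 counts in controls and 24, 17 and 30 counts with bradykinin, without overlap. Its log2 fold change was 1.27 ± 0.30 (edgeR adjusted p = 0.586), and 1.15 ± 0.40 (adjusted p = 0.166) without bradykinin replicate 3. Another member with an unadjusted p under 0.05, ENSRNOG00000003269, has no symbol and is annotated to the vacuolar ATPase. It had 167, 141 and 235 counts in controls and 191, 244 and 372 counts with bradykinin, and the groups overlapped. These rows, Cycs, the Cox assembly factors and Ppargc1a were chosen for mention after their values were seen.

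**Figure D4:**
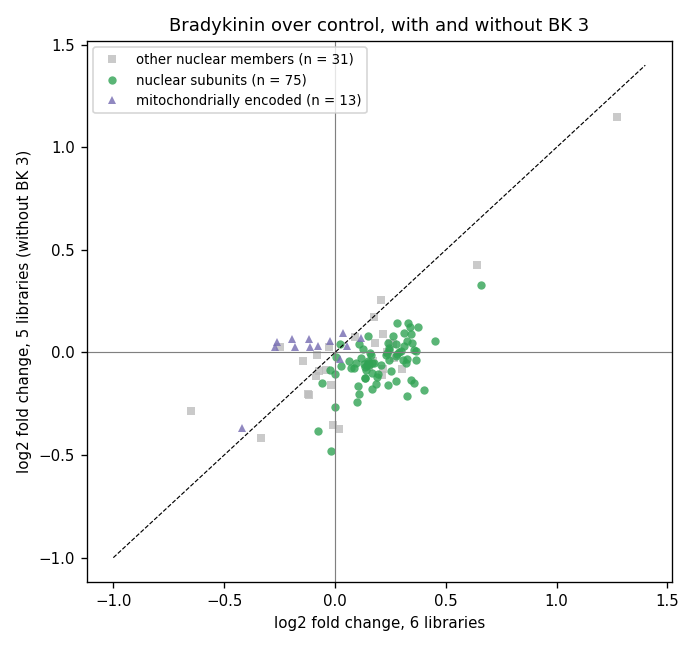
Log2 fold change of bradykinin over control for each tested member in 6 libraries (x axis) and without bradykinin replicate 3 (y axis), with the dashed line of equal values. Nuclear subunits lie mostly to the right of 0 on the x axis (70 of 75) but only 24 of 75 lie above 0 on the y axis, and 11 of 13 mitochondrial genes lie above 0 on the y axis against 4 of 13 on the x axis.

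Further gene lists, outside the pathway entry, were read in the same way. Of 25 regulators of respiratory and mitochondrial genes, 23 were tested and 0 passed in either fit, with a median log2 fold change of 0.00 against 0.01 for all tested genes, and of -0.01 in 5 libraries. Mterf3, a repressor of mitochondrial transcription, had the smallest p, at 4.42, 4.00 and 4.19 CPM in controls and 6.23, 5.67 and 8.20 CPM with bradykinin. Its groups did not overlap, and its log2 fold change was 0.67 ± 0.19 (edgeR adjusted p = 0.678), or 0.50 ± 0.18 (adjusted p = 0.187) in 5 libraries.

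Tfam, which packages mitochondrial DNA and starts its transcription, was at 21.6, 20.8 and 21.0 CPM in controls and 24.99, 21.9 and 33.2 CPM with bradykinin, a log2 fold change of 0.34 ± 0.16, or 0.15 ± 0.09 (edgeR adjusted p = 0.516) in 5 libraries. Esrra, a nuclear receptor that activates respiratory genes, was at 55.7, 56.7 and 59.0 CPM in controls and 66.4, 66.0 and 59.2 CPM with bradykinin. Here bradykinin replicate 3 was the treated library nearest to the controls. The log2 fold change of Esrra was 0.16 ± 0.10, and 0.21 ± 0.06 (edgeR adjusted p = 0.082) in 5 libraries. Ppargc1a, the coactivator PGC-1alpha, was listed at 0.16 CPM or less in every library and was not tested.

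Of 44 assembly factors 33 were tested and 0 passed, with a median log2 fold change of 0.11 in 6 libraries and -0.04 in 5. Ndufaf4, an early complex I assembly factor, was at 7.60, 7.93 and 9.13 CPM in controls and 10.0, 10.7 and 12.3 CPM with bradykinin, a log2 fold change of 0.42 ± 0.15 (edgeR adjusted p = 0.714). Timmdc1, which helps build the membrane arm of complex I, was at 15.9, 14.5 and 13.3 CPM in controls and 18.1, 16.0 and 27.0 CPM with bradykinin. Ttc19, a complex III assembly factor, was lower in every bradykinin library, at 21.3, 19.9 and 19.3 CPM in controls and 17.7, 16.3 and 16.9 CPM with bradykinin. The groups of these 3, named for their smallest p, did not overlap. That held for 6 of the 33 tested assembly factors (18.2%), near the 17.5% of all tested genes. In 5 libraries the log2 fold changes of the 3 were 0.33 ± 0.14, 0.22 ± 0.12 and -0.24 ± 0.10, with edgeR adjusted p of 0.274, 0.408 and 0.270.

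Of 7 carriers, inhibitor and uncoupling genes 5 were tested and 0 passed, and all 5 were highest in bradykinin replicate 3. Their median log2 fold change was 0.22 in 6 libraries and -0.14 in 5, where 1 of the 5 was positive. With bradykinin replicates 1 and 2 alone, 4 of the 5 did not overlap the controls (80%, against 31.7% of all tested genes). Slc25a4, an ADP/ATP carrier, was at 179.4, 167.4 and 169.8 CPM in controls and 160.8, 172.0 and 298.4 CPM with bradykinin. Atp5if1, the inhibitor of ATP synthase, was at 37.1, 39.2 and 42.6 CPM in controls and 36.7, 35.2 and 66.1 CPM with bradykinin. Slc25a4 and Atp5if1 had log2 fold changes of 0.29 ± 0.23 and 0.22 ± 0.24 in 6 libraries, and of -0.05 ± 0.05 and -0.14 ± 0.08 in 5. Slc25a5, another ADP/ATP carrier, was at 174.6, 174.7 and 180.8 CPM in controls and 159.1, 151.6 and 205.8 CPM with bradykinin, so replicates 1 and 2 lay below every control. In 5 libraries its log2 fold change was -0.19 ± 0.05 (edgeR adjusted p = 0.058), and -0.04 ± 0.13 in 6. Ucp2, of the uncoupling protein family, stood at -0.41 ± 0.18 in 5 libraries (adjusted p = 0.2997) and -0.04 ± 0.28 in 6 on the same log2 scale. Slc25a5 and Ucp2 were chosen after their values were seen. For Higd1a, a small protein that associates with complex IV, the controls were 29.0, 27.3 and 24.7 CPM and the bradykinin libraries 30.7, 30.0 and 44.6 CPM, without overlap. In 6 libraries it was the only 1 of the 5 without overlap (20%, against 17.5% of all tested genes). Its log2 fold change was 0.38 ± 0.17 (edgeR adjusted p = 0.737), and 0.17 ± 0.09 (adjusted p = 0.403) in 5 libraries.

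The high level of nuclear members in bradykinin replicate 3 went along with gene length. When tested genes were split into 4 equal classes by genomic span, the median deviation in that library was 0.35, 0.13, -0.08 and -0.44 from the shortest to the longest class. In bradykinin replicates 1 and 2 the same medians lay between -0.01 and 0.02. Of all tested genes in each class, 63.8%, 45.8%, 29.5% and 14.0%, in the same order, were highest in bradykinin replicate 3. Of the 97 tested nuclear members with a span (91.5% of 106), 61 fell in the shortest class (62.9%), 22 in the second, 8 in the third and 6 in the longest. Within these classes the members' median deviations were 0.59, 0.52, 0.35 and 0.03. An edgeR fit with a span term in each library gave a nuclear median log2 fold change of 0.08 in place of 0.18. RNA integrity values per library were not used here, and the part that gene length or RNA quality has in the result was not tested.

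**Figure D5:**
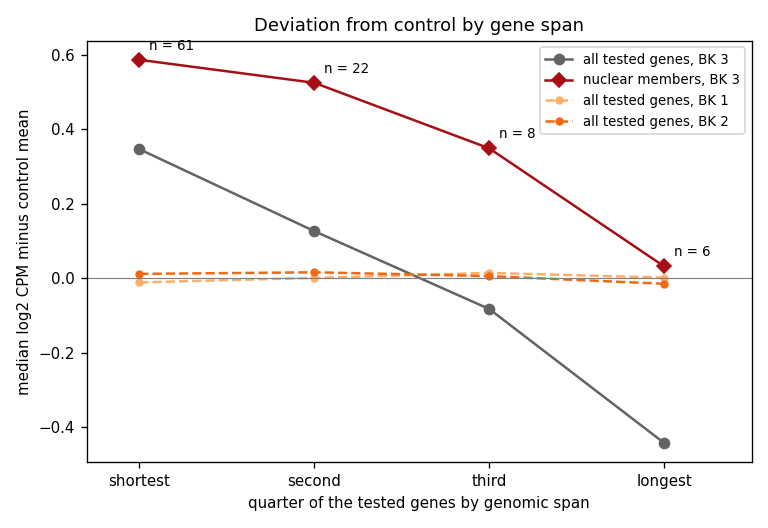
Median deviation from the control mean (y axis, log2 CPM) in 4 equal classes of tested genes by genomic span (x axis), for all tested genes in each bradykinin library and for nuclear members in bradykinin replicate 3 (BK 3), with n the members per class. In BK 3 all tested genes run from 0.35 to -0.44 and nuclear members from 0.59 to 0.03.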

How the data were processed

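Genes were counted in 6 libraries of poly(A)-selected RNA. The authors deposited whole-number counts for each gene without normalization. The tools named in the submitters' processing notes are RSEM 1.3.3, HISAT2 2.2.1, Bowtie2 2.4.5, fastp 0.23.2, SAMtools and DESeq2 1.34.0, and the build is Rnor_6.0. RSEM shares reads among similar genes by estimate, so copies and overlapping genes are uncertain.

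Symbols came from the table's Entrez identifiers through a RefSeq (GRCr8) gene table, which gave 15086 of 17139 rows a symbol; mitochondrial genes were named from the KEGG column. Of the members 20 have no symbol. Groups and replicate numbers came from the labels. The treated samples are titled B2R, and the treatment label, bradykinin, was followed.

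Counts were tested with edgeR 4.0.16 (R 4.3.3): filterByExpr, TMM, quasi-likelihood F test, two-sided, Benjamini-Hochberg adjustment over all tested genes, threshold 0.05. CPM use TMM-scaled library sizes, and deviations use log2 CPM with a prior count of 2. SE is the absolute log2 fold change over the square root of the F statistic. The fits were also run on simulated counts drawn from common gene means. No simulated library stood apart as bradykinin replicate 3 does, so that check does not cover its effect. Alternatives were the replicate block, a term for gene span, leaving out each library, DESeq2 1.42.0, limma-voom (limma 3.58.1), RLE or library-total scaling, scaling without mitochondrial genes, and a filter of 1 CPM in 3 libraries or none. Further fits of 5 libraries, without bradykinin replicate 3, were added after the data had been seen. An exact permutation test of the shares and their ratio, which with 3 against 3 cannot go below 0.1, is not printed, because these are sums over chosen members. Tables were handled in Python 3.11.15 with pandas 2.3.3 and drawn with matplotlib 3.10.9. Fixed naming took all mitochondrial genes, the 3 subunits of smallest p and the 1 of highest CPM per complex, isoform pairs, subunit c genes, and the 3 genes of smallest p in each further list; 1 gene chosen this way is not reported here, and counts include it. Members and lists were chosen with earlier results of these data known.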

Additional observations from a re-analysis of the deposited data

How the results depend on the processing

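With 3 libraries a group, counts of calls depend on the spread, and a single library set it here: the biological coefficient of variation was 0.168 in 6 libraries and 0.0537 in the 5 without bradykinin replicate 3. DESeq2 called 44 genes in 6 libraries and the span term 1, against 0; no oxidative phosphorylation member was called in any fit of 6 libraries. Leaving out each library in turn gave 0 to 388 calls over all genes, a nuclear median log2 fold change of -0.043 to 0.278, a mitochondrial median of -0.302 to 0.033, a difference in nuclear share of -0.017 to 0.10021 percentage points, in mitochondrial share of -0.256 to 0.010, and in their log2 ratio of -0.453 to 0.058. In each of these the value of opposite sign came from leaving out bradykinin replicate 3. The other alternatives kept the signs of the medians, from 0.079 (span term) to 0.200 (no filter) for nuclear members and from -0.129 to -0.115 for mitochondrial ones. The labels do not say whether libraries of the same replicate number belong together. Correlations of their deviations from the group mean were -0.094, -0.017 and -0.051. These cannot decide it, because bradykinin replicate 3 sets much of the deviation in the treated group. With a replicate block the medians were 0.148 and -0.129 and 0 genes were called.

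Among the 5 libraries, leaving out 1 more gave 138 to 333 calls (145 without control replicate 1, 138 without control replicate 2 and 209 without control replicate 3, against 388), 0 to 1 nuclear members called (1 without control replicate 3), a nuclear median of -0.062 to -0.033 and a mitochondrial median of -0.138 to 0.188, negative without bradykinin replicate 1 and without control replicate 1 (-0.044). Library totals moved the nuclear median to -0.073.

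For named genes, log2 fold changes over the fits that leave out a library changed sign for 12 mitochondrial genes: mt-Nd1 -0.364 to 0.067, mt-Nd2 -0.454 to 0.066, mt-Nd3 -0.038 to 0.090, mt-Nd4 -0.302 to 0.028, mt-Nd4l -0.585 to 0.051, mt-Nd5 -0.506 to 0.025, mt-Nd6 -0.138 to 0.169, mt-Cytb -0.398 to 0.028, mt-Co1 -0.173 to 0.033, mt-Co2 -0.00855 to 0.128, mt-Co3 -0.140 to 0.055 and mt-Atp6 -0.025 to 0.240. They also changed sign for Sdha (-0.107 to 0.094), Sdhb (-0.030 to 0.097), Sdhc (-0.057 to 0.216), Uqcrc1 (-0.052 to 0.238), Cox4i1 (-0.053 to 0.501), Cox6a1 (-0.063 to 0.333), Atp5f1b (-0.00048 to 0.237), Atp5mc1 (-0.203 to 0.249), Atp5mc3 (-0.214 to 0.530), Slc25a4 (-0.049 to 0.451) and Atp5if1 (-0.139 to 0.374). Under the span term Atp5mc1 was -0.058, Sdhb -0.00597 and Sdha -0.014. Sdha, at 0.0009, was also -0.0049 with RLE, -0.0047 with DESeq2, -0.0070 with limma-voom, -0.00035 with the 1 CPM filter and -0.0079 with the replicate block. The cause of these changes was not tested. Depth limits the members of few reads, such as mt-Atp8 with 97 to 173 counts per library and the 20 nuclear members that were not tested.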
